A study of Mus musculus with 7 samples.

Results

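Class I phosphoinositide 3-kinases (PI3K) and the phosphatase SHIP1 set the level of the membrane lipid PIP3, and the transcripts of 9 genes of this circuit were examined in T-cells with and without a knock-in of ORP4L. The 9 genes were chosen by name, as the catalytic subunits Pik3ca, Pik3cb, Pik3cd and Pik3cg, the regulatory subunits Pik3r1, Pik3r2, Pik3r5 and Pik3r6, and Inpp5d, which encodes SHIP1. They are 9 of the 25033 genes listed in each library, and all 9 passed the filter on low counts that left 13462 genes for testing.

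RNA sequencing libraries were made, 1 per mouse, from the T-cells of 4 ORP4L KI animals and 3 of their wild-type (WT) littermates, all C57BL/6J and aged 15 months. ORP4L KI mice carry the human ORP4L coding sequence behind a CAG promoter and a loxP-flanked stop in the Rosa26 locus, and a Cre transgene under the Lck promoter, which is active in T lineage cells, removes the stop. The knock-in mice were taken when moribund, and whether the WT littermates carried Cre or the unrecombined allele is not given in the sources used here. The cells came from blood or spleen, with neither named for any one library, and the isolation described used a kit for naive CD4+ T-cells.

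A class I PI3K adds a phosphate to the plasma membrane lipid PI(4,5)P2 and so makes PIP3, which recruits AKT and TEC family kinases to the membrane. The catalytic subunits encoded by Pik3ca, Pik3cb and Pik3cd pair with regulatory subunits such as those of Pik3r1 and Pik3r2, which hold the enzyme stable and bring it to phosphorylated receptors. The subunit of Pik3cg pairs instead with the product of Pik3r5 or Pik3r6 and answers to G protein-coupled receptors. Pik3cd and Pik3cg are enriched in leukocytes, whereas Pik3ca and Pik3cb are used in most tissues. SHIP1 is a blood cell enzyme that converts PIP3 to PI(3,4)P2.

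The sequences just before the annotated starts of the 4 members with the highest transcript levels are shown first, since these genes made up most of the signal described here. Each is the 250 bases before the start in RefSeq's annotation of GRCm38.p6, read 5′ to 3′ on the gene's strand, with every CG dinucleotide in capitals. Pik3cd lies on chromosome 4 from 149649168 to 149702566 on the minus strand, and the window shown, chr4:149698709-149698958, precedes the most upstream of its 3 listed starts and lies inside the gene span of the annotation used for locations. Inpp5d lies on chromosome 1 from 87620312 to 87720510 on the plus strand, with its window at chr1:87620062-87620311. Pik3r5 lies on chromosome 11 from 68432125 to 68497849 on the plus strand, with its window at chr11:68431875-68432124, of which 4 bases are annotated as exon. Pik3r1 lies on chromosome 13 from 101680761 to 101768217 on the minus strand, with its window at chr13:101768218-101768467.
Pik3cd: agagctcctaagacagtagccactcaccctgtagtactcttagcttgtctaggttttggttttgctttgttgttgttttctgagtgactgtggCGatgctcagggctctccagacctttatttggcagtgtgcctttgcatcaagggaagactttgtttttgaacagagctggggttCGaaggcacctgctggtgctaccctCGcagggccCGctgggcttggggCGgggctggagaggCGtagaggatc
Inpp5d: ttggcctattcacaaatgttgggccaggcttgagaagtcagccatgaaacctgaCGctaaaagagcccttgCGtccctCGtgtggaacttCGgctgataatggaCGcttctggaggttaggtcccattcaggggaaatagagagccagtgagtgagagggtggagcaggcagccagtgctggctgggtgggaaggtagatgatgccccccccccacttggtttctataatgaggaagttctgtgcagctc
Pik3r5: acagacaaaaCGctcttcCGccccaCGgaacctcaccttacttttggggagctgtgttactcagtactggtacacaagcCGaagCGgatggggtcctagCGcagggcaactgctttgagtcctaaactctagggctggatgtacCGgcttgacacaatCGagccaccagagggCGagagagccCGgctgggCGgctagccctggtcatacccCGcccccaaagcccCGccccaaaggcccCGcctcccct
Pik3r1: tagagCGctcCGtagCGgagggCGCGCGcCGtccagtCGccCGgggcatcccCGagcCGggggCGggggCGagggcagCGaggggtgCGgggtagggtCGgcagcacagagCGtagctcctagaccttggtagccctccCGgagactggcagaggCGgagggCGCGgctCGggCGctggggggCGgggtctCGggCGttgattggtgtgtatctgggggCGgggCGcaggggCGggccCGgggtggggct

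The windows differed in their CG content. Pik3cd held 6 CG dinucleotides and Inpp5d held 5, close to the median of 6 over the 32851 promoters of the table, whose quartiles were 2 and 16. Pik3r5 held 14, and Pik3r1 held 30, a number that 94.81% of the promoters did not exceed. Of the members not printed, Pik3cb held 32, Pik3r2 held 29, Pik3ca held 19 and Pik3cg held 3. In these windows the catalytic genes enriched in leukocytes, Pik3cd and Pik3cg, and the blood cell gene Inpp5d had the 3 lowest numbers. The broadly used Pik3ca, Pik3cb, Pik3r1 and Pik3r2 had the 4 highest. The windows were not alike, however. Those of Pik3cb and Pik3r2 lie inside the gene span, with 140 and 149 bases annotated as exon, against 0 for Pik3ca and Pik3r1. That of Pik3cd precedes only 1 of its 3 listed starts. Whether the order holds for other starts or without exon bases was not tested. The table held 8 of the 9 members. These are counts of letters in a window and carry no test.

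The other members were Pik3ca on chromosome 3 from 32397065 to 32466112, Pik3cb on chromosome 9 from 99038402 to 99140235, Pik3cg on chromosome 12 from 32173397 to 32208677 and Pik3r2 on chromosome 8 from 70768176 to 70776712. Pik3r6 lies on chromosome 11 from 68503019 to 68552698, on the same strand as Pik3r5 and with 5169 bases between the genes. Transcripts of the family members differed in sequence over stretches of 50 bases. Whether every read was assigned to the right member was not tested, since the mismatches allowed in mapping are not given in the sources used here. No run of 50 bases was shared between the transcripts of any 2 members, and the longest run shared by 2 members was 20 bases. With other genes the share of 50-base words ran from 0% for Pik3cd, Pik3r2 and Pik3r6 to 5.19% for Pik3cb, whose shared words all lie in Gm12992. Pik3r2 overlaps 6330537M06Rik on the opposite strand over 45 exon bases, so reads in that short stretch cannot be assigned without strand information.

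Before the members, the knock-in and the cell content were checked. Osbp2 encodes ORP4L in the mouse. It had 0, 0 and 1 reads in the WT libraries and 188, 742, 155 and 443 in ORP4L KI replicates 1 to 4. The ORP4L KI mean of 22.1 CPM (SD 14.8) was at least 105-fold above a floor of 3 counts per WT library. Single ORP4L KI libraries lay on both sides of that mean. The knocked-in sequence is human and the mapping reference was mouse, so how fully these counts capture it is not known. Total counts ran from 12918187 to 15912921 in WT and from 16757959 to 19665679 in ORP4L KI. Of 14 T cell markers, 11 were listed in the files and detected in every library, and both Cd4 and Cd8a were present. The 14 granulocyte markers, all detected in every library, took 0.186% to 0.530% of the counts in WT and 1.12% to 12.2% in ORP4L KI, and 14 of 14 were called higher by an unadjusted p under 0.01 with a log2 change over 1. Dendritic cell markers took 0.055% to 0.0769% in WT and 0.0127% to 0.0268% in ORP4L KI (7 of 8 called lower by that rule), and that share did not overlap between the groups. The erythroid share did not overlap either (1.09% to 1.87% and 0.13% to 0.869%), but the list went both ways. By the fitted value 7 of 13 markers were higher and 6 lower, with a median log2 change of 0.09 and 0 called. At an unadjusted p under 0.05 there were 5 lower and 0 higher. The groups did not overlap for 5 lower markers and 0 higher ones. The B cell, NK cell and monocyte and macrophage shares overlapped. Of 9 NK cell markers 4 were nonetheless called lower and 0 higher. By the fitted value 7 of these were lower and 2 higher, both of the latter at an unadjusted p under 0.05. Of 12 monocyte and macrophage markers 2 were called lower and 1 higher, with 11 lower by the fitted value. Of 12 B cell markers 0 were called, with all 12 lower by the fitted value. Of all genes tested, 4.68% were called by that rule in either direction. The highest granulocyte share was in ORP4L KI replicate 1, where the T cell markers took 0.104% against 0.210% to 0.391% in the other libraries. This library stands apart from the rest, so the value without it is given beside the comparisons below. In bulk samples, fewer cells of a type and less RNA per cell cannot be told apart.

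None of the 9 members was called between the genotypes. In edgeR's quasi-likelihood test, 0 members passed an adjusted p of 0.05, a threshold passed by 3 of the 13462 genes (0.0223%). By a second rule, a p under 0.01 before adjustment together with a log2 change over 1 in size, 0 members were called against 4.68% of all genes. At an unadjusted p under 0.05 there was 1 member, Pik3r2, against 13.7% of all genes. DESeq2's Wald test called 0 members under both rules, also with 1 member under 0.05 before adjustment. The median log2 fold change of the members was −0.26, with 6 lower and 3 higher in ORP4L KI by the fitted value, beside a median of 0.01 over all genes tested. With libraries scaled by total counts alone, 7 of the 9 were lower, since Pik3cb changed sign, and 8 of the 9 were lower without ORP4L KI replicate 1, since Pik3cb and Pik3r6 changed sign. The p-values measure the spread between mice, and values below are CPM, counts scaled to the library total and adjusted by TMM, unless another unit is named.

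**Figure D1:**
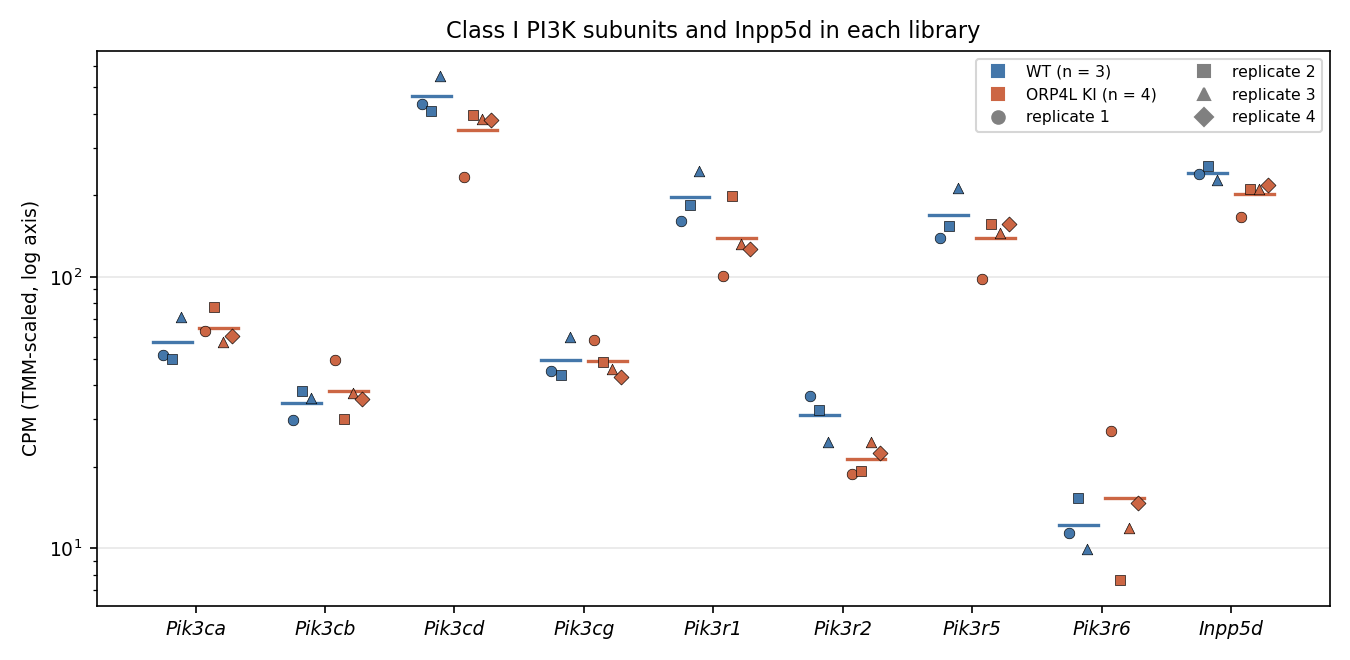
CPM of each member on a log axis, with a point for each of the 7 libraries (blue WT, orange ORP4L KI, the marker shape giving the replicate) and a bar at the group mean. Pik3cd is the highest member in every library, the groups do not overlap for Pik3cd, Pik3r2 and Inpp5d, and ORP4L KI replicate 1 (orange circle) is the lowest library for 5 members.

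Pik3cd encodes the catalytic subunit that acts downstream of the T cell receptor and costimulatory receptors. Its level was 433, 408 and 551 CPM in WT replicates 1 to 3 and 234, 396, 382 and 379 CPM in ORP4L KI replicates 1 to 4. All 4 ORP4L KI values were below the lowest WT value, and ORP4L KI replicate 1 was far below the other 3. The log2 fold change was −0.42 with an SE of 0.24 and a 95% interval from −0.96 to 0.13 (edgeR quasi-likelihood test, adjusted p = 0.516). Without ORP4L KI replicate 1 it was −0.27 with an SE of 0.19 (edgeR, adjusted p = 0.616).

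Pik3ca, a broadly used catalytic gene, was at 51.6, 50.1 and 71.1 CPM in WT and at 63.2, 77.6, 57.7 and 60.5 CPM in ORP4L KI. The groups overlapped, since WT replicate 3 lay above 3 of the ORP4L KI libraries, and the log2 fold change was 0.17 with a 95% interval from −0.29 to 0.63 (edgeR, adjusted p = 0.808). It was 0.18 without ORP4L KI replicate 1 and ran from 0.05 to 0.35 with any 1 library left out. Pik3cb, the other broadly used catalytic gene, was at 29.7, 37.9 and 35.8 CPM in WT and at 49.4, 30.1, 37.5 and 35.5 CPM in ORP4L KI. The value of ORP4L KI replicate 1 was the highest of all, the other libraries overlapped, and the log2 fold change of 0.15 (95% interval −0.34 to 0.63, edgeR adjusted p = 0.845) was −0.01 without that library. Pik3cg, the catalytic gene coupled to G protein-coupled receptors, was at 45.2, 43.7 and 60.0 CPM in WT and at 58.6, 48.8, 45.9 and 42.8 CPM in ORP4L KI. Both groups covered the same range, and the log2 fold change was −0.02 with a 95% interval from −0.46 to 0.43 (edgeR, adjusted p = 0.983), and −0.12 without ORP4L KI replicate 1.

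Among the regulatory genes, Pik3r2 had the smallest p of the 9 members. It was at 36.3, 32.3 and 24.6 CPM in WT and at 18.8, 19.3, 24.6 and 22.4 CPM in ORP4L KI. The groups only just failed to overlap, as WT replicate 3 and ORP4L KI replicate 3 were equal to 3 digits. Its log2 fold change was −0.55 with an SE of 0.21 and a 95% interval from −1.01 to −0.08 (edgeR, unadjusted p = 0.026, adjusted p = 0.278), and −0.49 without ORP4L KI replicate 1 (edgeR, adjusted p = 0.320). Its unadjusted p in edgeR was 0.12 without WT replicate 1 and 0.0757 without WT replicate 2, with 0 members then under 0.05.

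Pik3r1, which encodes the most widely used regulatory subunits, was at 160, 184 and 246 CPM in WT and at 101, 199, 132 and 127 CPM in ORP4L KI. ORP4L KI replicate 2 lay within the WT range and the other 3 below it. The log2 fold change was −0.49 with an SE of 0.27 and a 95% interval from −1.09 to 0.10 (edgeR, adjusted p = 0.471), and −0.37 without ORP4L KI replicate 1. It was −0.73 without ORP4L KI replicate 2 (edgeR, unadjusted p = 0.0130, adjusted p = 0.160) and −0.30 without WT replicate 3.

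Pik3r5 and Pik3r6 encode the alternative partners of the Pik3cg product. Pik3r5 was at 139, 154 and 212 CPM in WT and at 98.4, 156, 145 and 157 CPM in ORP4L KI, with a log2 fold change of −0.28 (95% interval −0.81 to 0.25, edgeR adjusted p = 0.698). This was −0.15 without ORP4L KI replicate 1 and −0.08 without WT replicate 3. Pik3r6, the member with the fewest reads, was at 11.4, 15.3 and 9.90 CPM in WT and at 27.1, 7.61, 11.8 and 14.7 CPM in ORP4L KI. Its highest and lowest libraries were both ORP4L KI, replicates 1 and 2. The log2 fold change of 0.32 had the widest interval of the members, from −0.57 to 1.22 (edgeR, adjusted p = 0.816), and was −0.11 without ORP4L KI replicate 1.

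Inpp5d, the phosphatase that works against the kinases, was at 240, 256 and 228 CPM in WT and at 166, 212, 212 and 219 CPM in ORP4L KI. All 4 ORP4L KI libraries lay below the WT libraries, with replicate 1 again the lowest. The log2 fold change was −0.26 with an SE of 0.18 and a 95% interval from −0.67 to 0.16 (edgeR, adjusted p = 0.624), and −0.18 without that library.

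Pik3cd, Pik3r2 and Inpp5d were the 3 members of 9 whose groups did not overlap, all with ORP4L KI lower, where 7.38% of all genes did not overlap in that direction, 6.43% in the other, where there were 0 members, and 13.8% in either. For each of the 3, an exact permutation test (35 splits, two-sided by doubling the smaller tail) gave p = 0.0571. With that doubling, this is the smallest value that 4 libraries against 3 allow. Groups that do not overlap always give this value, so it adds nothing to the separation. The 95% intervals of Pik3r1, Pik3r2 and Pik3r6 reached past 1 on the log2 scale on 1 side, and those of the other 6 members did not. The granulocyte, dendritic cell and erythroid marker shares also did not overlap between the groups. Of 9 NK cell markers 7 were lower by the fitted value (4 called) and 2 higher. Of 12 monocyte and macrophage markers 11 were lower and 1 higher, and all 12 B cell markers were lower. The part of cell content in these differences was not tested.

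**Figure D2:**
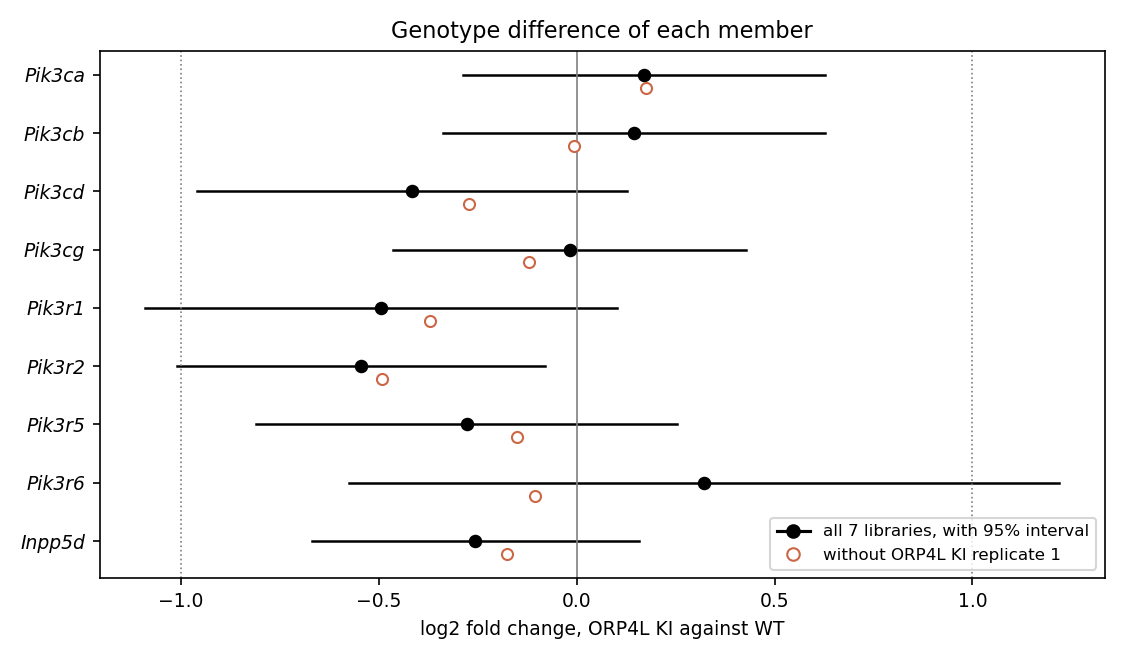
Fitted log2 fold change of ORP4L KI against WT for each member, with its 95% interval from all 7 libraries (black) and the value without ORP4L KI replicate 1 (open orange circles). Dotted lines mark a log2 fold change of 1 in size. The interval of Pik3r2, from −1.01 to −0.08, is the one that does not include 0, before adjustment over the genes tested and with all 7 libraries.

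To ask which isoforms the cells used, levels were compared between genes within each library as RPKM, which takes transcript length into account. Pik3cd was the highest of the 9 in 7 of 7 libraries, with 95.7, 83.2 and 124 RPKM in WT and 39.8, 88.1, 77.6 and 71.2 RPKM in ORP4L KI. Inpp5d followed with 28.1 to 52.6 RPKM, Pik3r5 with 18.8 to 53.6 and Pik3r1 with 12.1 to 39.2. The other 5 members were low, with 4.96 to 12.4 RPKM for Pik3r2, 6.61 to 8.48 for Pik3cb, 5.92 to 9.94 for Pik3cg, 5.60 to 9.47 for Pik3ca and 2.57 to 7.01 for Pik3r6. The blood cell members therefore did not share a level, since Pik3cd was at the top and Pik3cg among the low members.

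Neighbours in this order were compared by exact sign flips over the 7 libraries, adjusted over 8 pairs. The pairs were set by ranking the members in these same libraries, so the p-values describe the spread around that ranking and are no independent test of it. Pik3cd exceeded Inpp5d by 1.80-fold on average, in 7 of 7 libraries (exact p = 0.0156, the smallest possible, adjusted p = 0.0417). Pik3r5 exceeded Pik3r1 by 1.49-fold, and Pik3r1 exceeded Pik3r2 by 2.91-fold, both also in 7 of 7 libraries and with the same p. With any 1 library left out, the smallest possible exact p is 0.03125, and the adjusted p of these 3 pairs was then 0.0625 or 0.0833, with each difference in the same direction. The place of Pik3r5 above Pik3r1 rests on the division by length (4363 and 6915 bases for the longest transcripts), since by mean read count Pik3r1 ranked 3 and Pik3r5 ranked 4. Inpp5d was above Pik3r5 by 1.29-fold in 6 of 7 libraries (exact permutation, adjusted p = 0.0625), and Pik3ca was above Pik3r6 by 1.70-fold in 6 of 7 (adjusted p = 0.075). Between these, the neighbours Pik3r2 and Pik3cb, Pik3cb and Pik3cg, and Pik3cg and Pik3ca did not differ beyond the spread over libraries, with mean ratios of 1.05, 1.01 and 1.08. Pik3r6 was the lowest member in 6 of 7 libraries, the exception being ORP4L KI replicate 1.

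Of the summed catalytic RPKM, Pik3cd took 82.5%, 80.6% and 82.2% in WT replicates 1 to 3 and 64.7%, 78.4%, 78.7% and 79.0% in ORP4L KI replicates 1 to 4. Pik3cd transcripts were thus the bulk of the catalytic pool in all 7 libraries, and each ORP4L KI library was below each WT library. The mean share was 81.8% ± 1.01 (SD, n = 3) in WT and 75.2% ± 7.03 (SD, n = 4) in ORP4L KI, a difference of −6.59 percentage points (exact permutation test, p = 0.0571, adjusted p = 0.20 over 7 measures). Most of the ORP4L KI spread came from replicate 1, and without it the difference was −3.07 points.

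The Pik3ca share was 5.40%, 5.43% and 5.82% in WT and 9.60%, 8.44%, 6.53% and 6.93% in ORP4L KI. These groups did not overlap either, with ORP4L KI higher by 2.32 points (exact permutation test, p = 0.0571, adjusted p = 0.20), and by 1.75 points without replicate 1. The 4 shares add to the whole, so a lower Pik3cd share entails a higher share of other subunits. Pik3cb took 5.38% to 7.56% in WT and 6.00% to 13.8% in ORP4L KI, and Pik3cg took 6.35% to 6.59% in WT and 6.57% to 11.9% in ORP4L KI. Both overlapped between the groups (exact permutation, adjusted p = 0.30 and 0.267). Without ORP4L KI replicate 1 their differences of 2.55 and 1.72 points were 0.874 and 0.454 points. In ORP4L KI replicate 1, Pik3ca, Pik3cb and Pik3cg each took the largest share seen in any library. With the smaller tail doubled, as here, the exact test of 4 libraries against 3 cannot reach a p under 0.05 for any of the 7 measures.

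**Figure D3:**
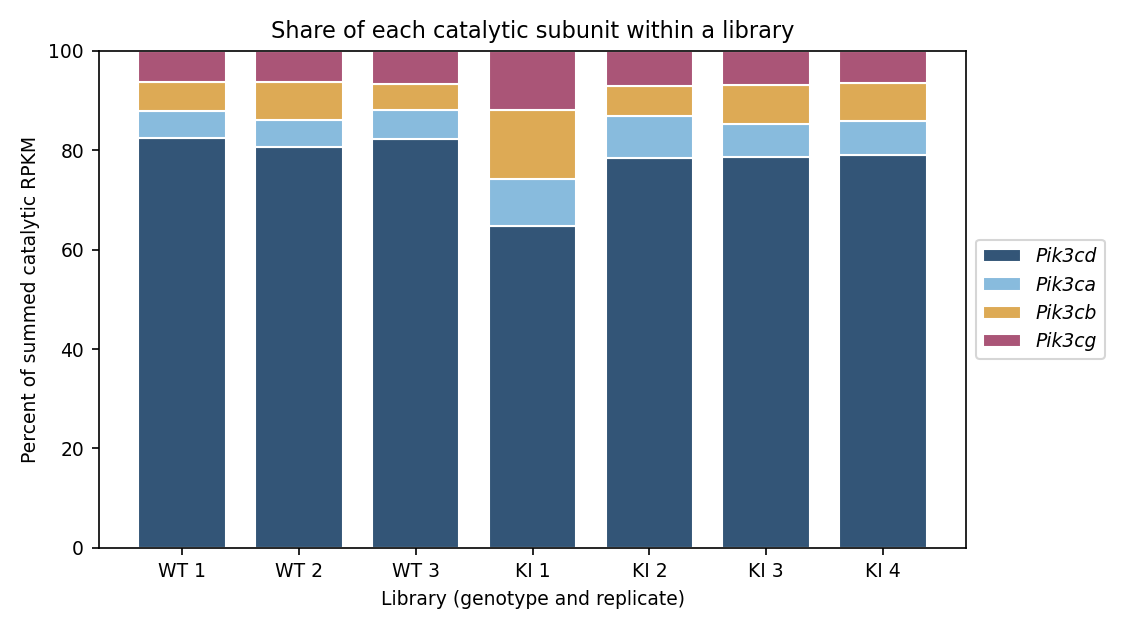
Percent of the summed RPKM of the 4 catalytic genes taken by each gene, stacked to 100 for each library. Pik3cd (dark blue) fills 80.6% to 82.5% of the WT bars, 78.4% to 79.0% of the bars of ORP4L KI replicates 2 to 4 and 64.7% of that of ORP4L KI replicate 1.

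Regulatory use varied more between mice than between genotypes. Pik3r1 exceeded Pik3r2 by 2.02-fold, 2.61-fold and 4.58-fold in WT replicates 1 to 3 and by 2.45-fold, 4.72-fold, 2.45-fold and 2.60-fold in ORP4L KI replicates 1 to 4. The highest ratios came from 1 library of each genotype, WT replicate 3 and ORP4L KI replicate 2. The group means differed by 0.02 on the log2 scale (exact permutation test, p = 0.914), and by 0.11 without ORP4L KI replicate 1.

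Pik3r5 exceeded Pik3r6 by 9.0-fold, 7.42-fold and 15.8-fold in WT and by 2.68-fold, 15.2-fold, 9.03-fold and 7.90-fold in ORP4L KI. Pik3r5 was thus the main partner gene of Pik3cg in every library, with ORP4L KI replicate 1 far below the rest. The log2 ratio differed by −0.47 between the groups (exact permutation, p = 0.686, adjusted p = 0.80) and by 0.01 without that library.

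The balance of phosphatase to kinase was read from Inpp5d over Pik3cd. The ratio was 0.55, 0.622 and 0.41 in WT and 0.706, 0.53, 0.55 and 0.572 in ORP4L KI, so that Inpp5d was below Pik3cd throughout. The extremes were WT replicate 3 and ORP4L KI replicate 1, and the log2 ratio differed by 0.17 between the groups (exact permutation, p = 0.457, adjusted p = 0.64). This difference was 0.08 without ORP4L KI replicate 1, 0.0020 without WT replicate 3 and 0.30 without WT replicate 2.

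The library with the most granulocyte marker reads was also the one with the lowest Pik3cd share and the lowest ratio of Pik3r5 to Pik3r6. Granulocyte markers took 12.2% of counts in ORP4L KI replicate 1, where the Pik3cd share was 64.7% and Pik3r5 exceeded Pik3r6 by 2.68-fold. They took 4.91% in replicate 4, 3.06% in replicate 3 and 1.12% in replicate 2, and among the 4 ORP4L KI libraries the Pik3r6 level followed that order with 27.1, 14.7, 11.8 and 7.61 CPM. The Pik3cd share did not, being 79.0%, 78.7% and 78.4% in those 3 libraries. In WT, Pik3r6 was highest in replicate 2, where the granulocyte share was 0.455%, between those of the other WT libraries. The part of granulocyte content in these values was not tested.

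**Figure D4:**
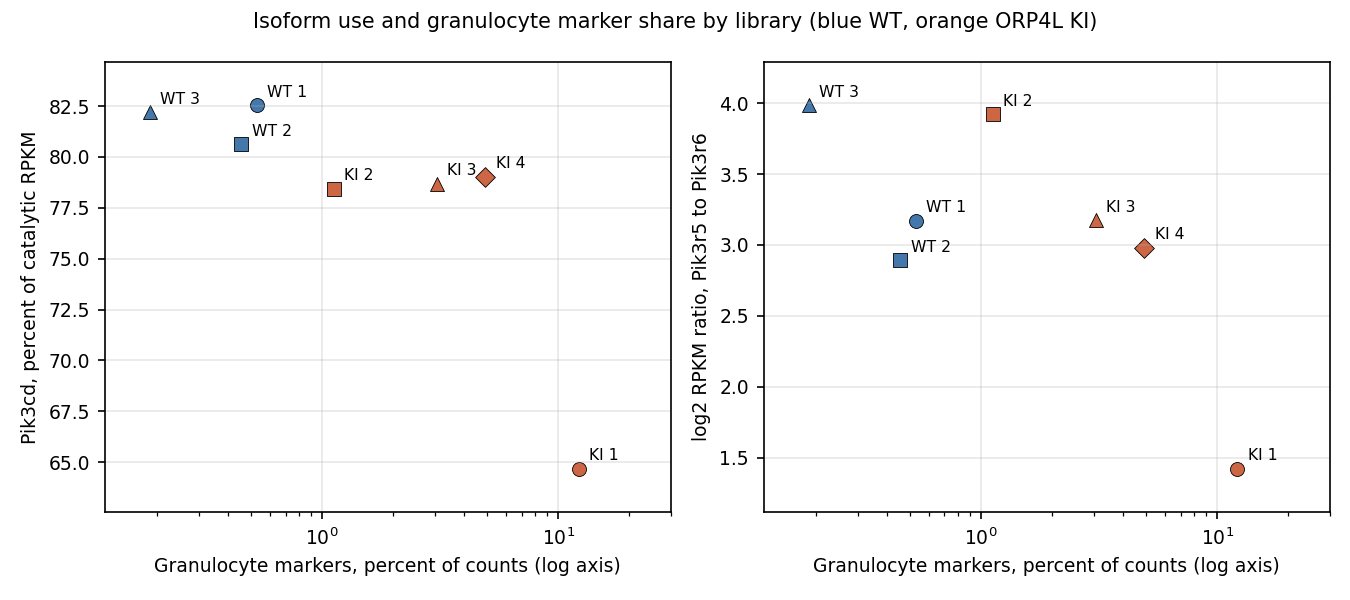
Percent of all counts taken by the 14 granulocyte markers (log axis) against the Pik3cd share of catalytic RPKM (left) and the log2 RPKM ratio of Pik3r5 to Pik3r6 (right), 1 point per library, with axes that do not start at 0. ORP4L KI replicate 1 lies at 12.2% on the horizontal axis and is lowest in both panels, while the other 6 libraries lie between 78.4% and 82.5% on the left and between 2.89 and 3.99 on the right.

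Of 17 other PI3K family genes and phosphoinositide phosphatases, 16 were tested, 8 were higher and 8 lower by the fitted value, with a median log2 fold change of −0.02, and 1 was called, by the unadjusted p and fold rule, which 4.68% of all genes passed. A count of 1 in 16 is near that background. Inpp5j encodes a phosphatase acting on PIP3 and related lipids. It was at 2.30, 1.2 and 0.84 CPM in WT and at 11, 3.07, 4.65 and 5.35 CPM in ORP4L KI, so that the groups did not overlap. It rose under this rule with a log2 fold change of 2.05 and an SE of 0.53 (edgeR, unadjusted p = 0.0035, adjusted p = 0.117), and it did not pass the adjusted threshold, whereas DESeq2's Wald test called it under both rules. The log2 fold change was 1.58 without ORP4L KI replicate 1, and the call was lost without WT replicate 2 or WT replicate 3, at 1.92 and 1.78. Over all 7 libraries, in WT as in ORP4L KI, its level followed the order of the granulocyte share, whose part was not tested. At 0.27 to 2.64 RPKM it was far below Inpp5d in every library.

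Of 18 genes that feed or restrain class I PI3K, 17 were tested and 0 were called under both rules by edgeR and by DESeq2, with 1 lower at an unadjusted p under 0.05 and a median log2 fold change of −0.16. The largest positive value was that of Cd28, the costimulatory receptor that binds PI3K, with 161, 130 and 447 CPM in WT and 205, 759, 388 and 284 CPM in ORP4L KI and a log2 fold change of 0.73 (SE 0.53, edgeR adjusted p = 0.632). The groups overlapped widely, and the value was 0.94 without ORP4L KI replicate 1. The largest negative value was that of Trat1, a T cell receptor adaptor, with 32.4, 20.1 and 38.9 CPM in WT and 13.9, 26.8, 18.1 and 12.8 CPM in ORP4L KI and a log2 fold change of −0.77 (SE 0.32, edgeR adjusted p = 0.319). This was the gene under 0.05 before adjustment, although ORP4L KI replicate 2 lay within the WT range. Without ORP4L KI replicate 1 it was −0.67 (edgeR, unadjusted p = 0.0735).

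Of 20 genes that bind PIP3 or work with SHIP1, all 20 were tested and 0 were called under both rules, with 0 at an unadjusted p under 0.05 and a median log2 fold change of −0.10. DESeq2's Wald test gave the same 3 counts of 0. The extremes were Dok3, an adaptor that binds SHIP1, at 0.79 (SE 0.51, edgeR adjusted p = 0.576), and Cd300a, an inhibitory receptor, at −0.75 (SE 0.36, edgeR adjusted p = 0.412). Dok3 was highest in ORP4L KI replicate 1, at 281 CPM against 49.0 to 172 CPM elsewhere, and its log2 fold change was 0.35 without that library. Cd300a went the other way, to −1.10 without it, which passed the unadjusted p and fold rule (edgeR, unadjusted p = 0.0054, adjusted p = 0.128).

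As a description, the genes most like 3 members over the 7 libraries were taken from 5278 genes by Pearson's r of log2 CPM. For Pik3cd they were Ndor1 (r = 0.992), Ndrg3 (0.989) and Akap8l (0.986). For Inpp5d they were Eml3 (0.992), Iffo1 (0.988) and Lrrc45 (0.982). For Pik3cg they were Ubn2 (0.966), Cpne1 (0.960) and 1700047I17Rik2 (0.959). The same 7 libraries, and ORP4L KI replicate 1 among them, lie behind all of these values, and a search over so many genes finds high values with so few points.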

How the data were processed

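RNA sequencing libraries (4 ORP4L KI, 3 WT, all T-cells) took their group and replicate number from the sample titles. The authors trimmed adapters, mapped reads with FANSe3 to a mouse mRNA reference and merged the splice variants of each gene, so transcript variants of 1 gene are not resolved. The build named in the submitters' processing notes is mm10, and the version of the reference and the treatment of multi-mapped reads are not given in the sources used here. The deposited values are an unnormalized read count per gene and its RPKM, computed by the authors from the length of the longest transcript. RPKM served only to compare genes within a library.

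The 9 members and all gene lists were chosen with earlier results of these data known. Tests across genes were run in edgeR 4.0.16 (R 4.3.3, limma 3.58.1). After filterByExpr (minimum count 10, minimum total count 15) and TMM scaling, edgeR's quasi-likelihood test compared ORP4L KI with WT, with no covariate. Values were adjusted by Benjamini-Hochberg over 13462 genes. The SE is the size of the log2 fold change divided by the square root of F. Isoform measures and single genes were compared by two-sided exact permutation of the group means, and neighbours in level by exact sign flips, in SciPy 1.17.1. The two-sided p of the permutation is the smaller tail doubled. Single-gene permutations used log2 of CPM plus 0.1. The named genes were all 9 members, Osbp2, the called genes of each of 3 pathway lists or otherwise its largest rise and fall, and the 3 genes most correlated with Pik3cd, Pik3cg and Inpp5d among genes with a mean log2 CPM of at least 5. Alternatives were DESeq2 1.42.0's size factors and Wald test, upper-quartile and total count scaling, leaving the filter out, asking for 10 counts in each library, the replicate number as a block, raw counts for isoform use, and each library left out. No 2 libraries agreed within sampling noise (lowest chi-square per degree of freedom 27.8). Totals of 12918187 to 19665679 counts gave each member 139 to 7841 reads in a library, and the floor of 3 counts covers counting error only. The quasi-likelihood test was tested on simulated data, and the exact tests on constructed values with known answers. Promoter windows were read from RefSeq sequences of GRCm38.p6, which matched 8 of 9 members, and locations from a gene annotation of the same build, matched by RefSeq identifier.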

Additional observations from a re-analysis of the deposited data

Results flagged for a closer look

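A library far from the others of its group was seen in 5 of 17 groups of 4 ORP4L KI values examined, where chance gives about 0.85, and the 17 groups share libraries. In 4 of the 5 the library was ORP4L KI replicate 1. Its Pik3cd level was 234 CPM against 379 to 396 CPM in the other 3, and its Inpp5d level was 166 CPM against 212 to 219 CPM. Its Pik3cd share of catalytic RPKM was 64.7% against 78.4% to 79.0%, and its Pik3cg share was 11.9% against 6.57% to 7.12%. The fifth was ORP4L KI replicate 2, with a log2 ratio of Pik3r1 to Pik3r2 of 2.24 against 1.29 to 1.38 in the other 3. Groups of 3 were not examined.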

How the results depend on the processing

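Members called stayed at 0 under both rules in all 14 alternatives, while the adjusted count over all genes ran from 0 (filter of 10 counts in every library, with 1549 genes at an unadjusted p under 0.05) to 784 (DESeq2's Wald test), beside 3. Upper-quartile scaling gave 44, total counts alone 113 and no filter 176. It ran from 0 to 342 with a library left out, highest without ORP4L KI replicate 2. By p and fold the count was 630, or 328 without WT replicate 2. Total counts alone shifted the median of all genes by −0.14, and 40.3% of these calls were then higher against 50.8%. Replicate numbers showed no sign of pairing the samples. The mean correlation was −0.13 within numbers (−0.53 to 0.15) and 0.04 between (−0.39 to 0.51). So few libraries cannot exclude a pairing. With the number as a replicate block, without ORP4L KI replicate 4, 48 genes passed the adjusted p and 0 members were called.

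No value that changed sign had passed its threshold. Pik3cb went to −0.018 with total counts alone and ran from −0.0073 to 0.23 with a library left out. Pik3cg went to 0.045 with the replicate block and to between −0.12 and 0.14 with a library left out, and Pik3r6 ran from −0.11 to 0.54. The log2 difference of Pik3r1 to Pik3r2 ran from −0.24 to 0.35, and that of Pik3r5 to Pik3r6 from −0.82 to 0.010. Of the order of levels, Pik3r2 to Pik3cb ran from −0.062 to 0.22 and was −0.21 in ORP4L KI alone. Pik3cb to Pik3cg ran from −0.024 to 0.066 and was −0.067 in WT alone. With fewer libraries the smallest exact p is larger. Pik3cd to Inpp5d (0.77 to 0.90 with a library left out, 0.94 in WT alone, 0.77 in ORP4L KI alone), Pik3r5 to Pik3r1 (0.51 to 0.62, 0.44, 0.68) and Pik3r1 to Pik3r2 (1.43 to 1.63, 1.53, 1.55) kept their direction but not their call. The causes of the sign changes were not tested. Depth limits Pik3r6 most, with 139 reads in its lowest library.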
